A study of Mus musculus with 11 samples.

Results

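Solute carriers are the membrane proteins that move sugars, amino acids, lactate, ions, metals, vitamins and nucleotides across the plasma membrane and the membranes of organelles. Here they are the genes whose symbol begins with Slc and a family number, without the mitochondrial Slc25 family. They were examined in the mRNA of the tibialis anterior (TA), a fast muscle of the lower hind limb. The members were selected on the measured values: a gene counted when its mean linear signal reached 30 in at least 1 group, and the probe set with the highest signal stood for the gene. Of 304 such symbols on the array, 159 were members and 145 were not. All 159 were among the 14494 probe sets of the array's 28350 that were tested. Signals of 30 or more were found in all 3 groups for 147 members, in 2 groups for 3 members and in 1 group for 9 members. The members nearest to the limit were Slc22a18 at 31.55, Slc35d2 at 31.56 and Slc4a1 at 32.08, and the nearest genes outside it were Slc23a3 at 29.96, Slc27a3 at 29.68 and Slc1a3 at 29.11. Of the 159, 4 are no carriers: Slc9a3r1 and Slc9a3r2 encode scaffold proteins that bind sodium/proton exchangers, and Slc4a1ap and Slc7a6os are named after a neighbouring or interacting carrier.

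The arrays came from 3 groups of male mice at 14 weeks of age, 1 array per mouse. C57 mice were untreated wild-type animals of the C57/B10 background (n = 3). *mdx* mice were untreated animals of that background with a nonsense mutation in exon 23 of *Dmd*, and so lack full-length dystrophin outside rare revertant fibres (n = 4). Pip6e-PMO mice were *mdx* animals given a single tail-vein dose of 12.5 mg/kg at 12 weeks of age (n = 4). Pip6e-PMO is a cell-penetrating peptide joined to a morpholino oligonucleotide that makes the splicing machinery skip the mutated exon. No C57 mouse received it. RNA was taken from whole cryosections, so that fewer cells of a type and less RNA per cell cannot be told apart for any gene below.

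In muscle, glucose enters through Slc2a4 and Slc2a1, lactate passes through the monocarboxylate carriers of the Slc16 family, creatine and taurine enter with sodium through Slc6a8 and Slc6a6, and Slc8 exchangers remove calcium. Macrophages, which invade dystrophic muscle, carry other members in their phagosomes and lysosomes, such as Slc11a1 and Slc15a3. Astrocytes, nerve endings and glia use carriers for glycine and glutamate, among them Slc6a9 and Slc1a1.

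The arrays were alike in scale, with median signals from 27.5 to 28.6. The array of Pip6e-PMO mouse 2 stood apart: the median absolute deviation of its log2 signals from the rest of its group was 0.381, against 0.153 to 0.257 for the other 10 arrays. Among the 159 members, this mouse was the highest of the 4 treated mice for 93 and the lowest for 30. The paper reports that a treated sample named T2 had the weakest response by RT-qPCR and mass spectrometry. It also describes the mRNA of T2 as the least restored and nearest to *mdx*. If T2 is mouse 2, which the labels do not state, counts without this mouse leave out the weakest responder. The counts of members called after treatment, in all and by class, are therefore given with and without mouse 2. The gene-level probe set of *Dmd* did not check the labels, because the mutation is a point change: the log2 difference between *mdx* and C57 was -0.55 (adjusted p = 0.198), and that between Pip6e-PMO and *mdx* 0.53 (adjusted p = 0.142). General skeletal fibre markers were high in every mouse, and the summed signal of 7 such genes ranged from 48740 to 51560 over the 11 mice, with none of the 7 called between groups. Slow fibre markers did differ. Of 5 tested, Tnni1 was higher in *mdx* than in C57 (2.47, adjusted p = 0.0132) and Myl3 lower (-1.67, adjusted p = 0.000506). Between Pip6e-PMO and *mdx* Myl3 was higher (0.805, adjusted p = 0.0297), and Tnnt1 (-0.79, adjusted p = 0.033) and Myl2 (-0.75, adjusted p = 0.0328) were lower. Their part in the carriers was not tested.

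Throughout, a value is a log2 signal of a probe set and a difference is one of group mean log2 signals with its standard error (SE). A member was called when limma's Benjamini-Hochberg adjusted p over all 14494 probe sets was under 0.05. The 2 comparisons with *mdx* share the *mdx* mice, and those with C57 share the C57 mice.

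In *mdx* muscle 10 members were higher than in C57 and 19 were lower, out of 159. This is 6.29% higher and 11.9% lower, where 7.06% and 4.96% of all probe sets tested were called in those directions. The median difference of the members was -0.05, beside -0.01 over all probe sets tested. At an unadjusted p under 0.05 there were 52 members. Of the 12 members that reached the signal limit in only 1 or 2 groups, Slc38a1 was called in this comparison. It reached the limit in *mdx* and Pip6e-PMO but not in C57. Classes of substrate were set by family number, so that the substrate of a single member can differ from that of its class. Among 33 members of the class of amino acids, peptides, neurotransmitters and creatine 8 were lower and 3 higher. Among 8 of the class of phosphate, vitamins and folate 3 were lower, Slc46a3 among them, and none was higher.

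**Figure D1:**
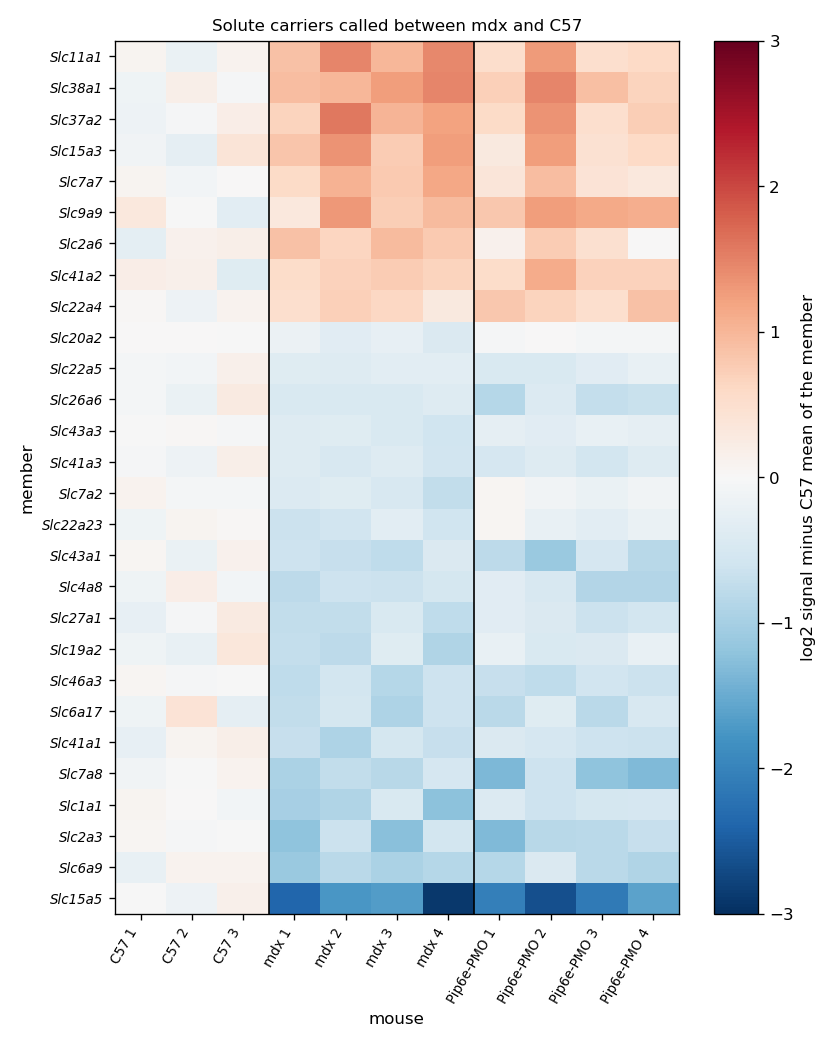
Each row is 1 of 28 members called between *mdx* and C57, and each column 1 mouse, and the colour is the log2 signal minus the member's mean in the 3 C57 mice. The 9 upper rows rose and the 19 lower rows fell in *mdx*, and Pip6e-PMO mouse 2 is the reddest of the treated mice in 8 of the upper 9.

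Among the members of largest rise were Slc11a1, Slc38a1, Slc37a2 and Slc15a3. Slc11a1 exports iron and manganese from the phagosome of macrophages. Its log2 signals were 6.33, 6.05 and 6.35 in C57, 7.12, 7.71, 7.24 and 7.68 in *mdx*, and 6.77, 7.53, 6.75 and 6.83 in Pip6e-PMO. All *mdx* mice lay above all C57 mice, and 3 of the 4 treated mice lay between these groups, with mouse 2 inside the *mdx* range. The difference between *mdx* and C57 was 1.19 (SE 0.20), a 2.29-fold rise (adjusted p = 0.00277).

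Slc37a2 exchanges sugar phosphates across the endoplasmic reticulum. It had log2 signals of 4.80, 4.93 and 5.16 in C57, 5.64, 6.54, 5.99 and 6.18 in *mdx*, and 5.54, 6.31, 5.46 and 5.70 in Pip6e-PMO. The *mdx* mice were again all above C57, by 1.12 (SE 0.22, 2.18-fold, adjusted p = 0.0064). Slc15a3 carries histidine and small peptides out of lysosomes, and its signals were 5.20, 5.04 and 5.69 in C57, 6.14, 6.66, 6.07 and 6.56 in *mdx*, and 5.60, 6.57, 5.77 and 5.91 in Pip6e-PMO. The treated mice other than mouse 2 lay below all *mdx* mice. The difference between *mdx* and C57 was 1.05 (SE 0.24, adjusted p = 0.0124), and without C57 mouse 2 it was no longer called (adjusted p = 0.0692).

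Slc7a7 forms, with Slc3a2, the exchanger that releases arginine and lysine from cells. It had signals of 5.53, 5.38 and 5.46 in C57, 6.04, 6.49, 6.24 and 6.62 in *mdx*, and 5.82, 6.38, 5.86 and 5.78 in Pip6e-PMO, a rise of 0.89 (SE 0.16, adjusted p = 0.00445) in *mdx*. Its partner Slc3a2 differed by 0.04 (adjusted p = 0.899). Slc2a6, a hexose carrier of intracellular membranes found in leukocytes, was 4.62, 5.05 and 5.10 in C57, 5.81, 5.57, 5.87 and 5.70 in *mdx*, and 5.06, 5.69, 5.41 and 4.94 in Pip6e-PMO. It rose by 0.81 (SE 0.18, adjusted p = 0.0106).

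**Figure D2:**
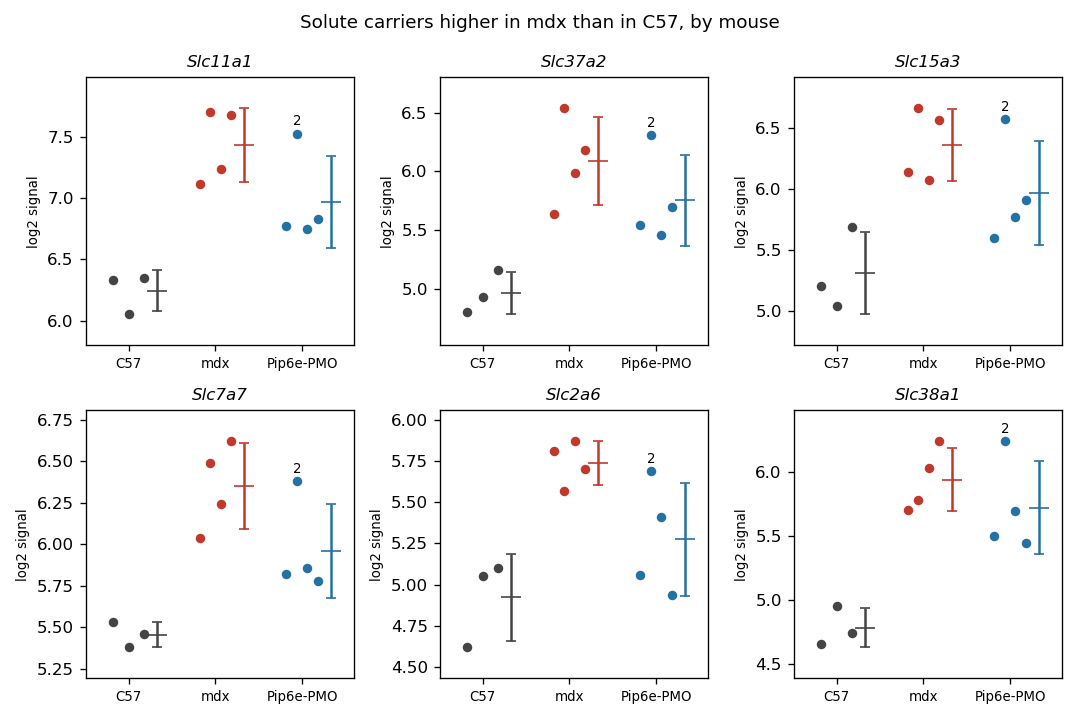
Points are the log2 signals of single mice for 6 members called higher in *mdx* than in C57, with the group mean and SD to their right, and the number marks Pip6e-PMO mouse 2. In each panel the 4 *mdx* mice lie above the 3 C57 mice, and treated mouse 2 is the highest of the treated mice.

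Other rising members have no role particular to macrophages. Slc38a1, a sodium-coupled carrier of glutamine, had signals of 4.65, 4.95 and 4.74 in C57, 5.70, 5.78, 6.03 and 6.24 in *mdx*, and 5.50, 6.24, 5.69 and 5.44 in Pip6e-PMO. It rose by 1.16 (SE 0.19, 2.23-fold, adjusted p = 0.00215). Slc41a2, of a magnesium carrier family, rose by 0.67 (SE 0.16, adjusted p = 0.0157, 0.0696 without C57 mouse 3). Slc22a4, the carrier of ergothioneine, rose by 0.53 (SE 0.13, adjusted p = 0.0163) and lost its call without C57 mouse 2 or *mdx* mouse 2 (adjusted p up to 0.0859).

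A further rising member, Slc9a9, exchanges sodium for protons in endosomes and did not separate the groups. Its signals were 6.52, 6.18 and 5.89 in C57 and 6.51, 7.50, 6.94 and 7.15 in *mdx*, a difference of 0.83 (SE 0.21, adjusted p = 0.0247), and the call was lost without C57 mouse 2 or 3 or *mdx* mouse 2 or 4 (adjusted p up to 0.114). In Pip6e-PMO it was 7.0, 7.45, 7.34 and 7.28, clear of the C57 mice.

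Most macrophage markers rose in *mdx* as these members did. Of 9 macrophage genes on the array 8 were tested and 7 were higher in *mdx* than in C57, with none lower. Their summed linear signal ran from 960.9 to 1396 in C57, from 2503 to 3992 in *mdx* and from 2076 to 2641 after Pip6e-PMO. The highest treated value was that of mouse 2, which thus lay in the *mdx* range, while the other 3 treated mice had sums of 2076, 2250 and 2310. The defining markers Cd68, Lyz2 and Emr1 rose by 2.12, 1.70 and 1.46. Cd163 stayed below the signal limit in all groups and was not tested, with 4.47 to 4.60 in *mdx* below 4.70 to 4.94 in C57. Between Pip6e-PMO and *mdx* limma called only 1 marker lower, Cd68 (-1.035, adjusted p = 0.0245), and 1 higher, Mrc1 (0.49, adjusted p = 0.0377). Regenerating fibre markers moved as well, 6 of 7 being higher in *mdx*, and their summed signals ran from 627.8 to 798.2 in C57 and from 1348 to 2133 in *mdx*, with 1563 in treated mouse 2 and 772.4 to 906.4 in the other treated mice. Their part in the differences of the carriers was not tested.

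The members that fell in *mdx* came from several classes of substrate. Slc15a5, a member of the peptide carrier family whose substrate is not established, had log2 signals of 8.22, 8.09 and 8.40 in C57, 5.85, 6.5, 6.56 and 5.34 in *mdx*, and 6.18, 5.61, 6.11 and 6.63 in Pip6e-PMO. No mouse of either *mdx* group came within 1 log2 unit of a C57 mouse. The difference between *mdx* and C57 was -2.17 (SE 0.29), a 4.51-fold fall (adjusted p = 0.000554), and that between Pip6e-PMO and *mdx* was 0.07 (SE 0.26, adjusted p = 0.882). The call against C57 held without each of the 11 mice in turn (adjusted p up to 0.00471).

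Carriers of glycine, glutamate and other amino acids fell with it. Slc6a9, which takes up glycine with sodium and chloride, was 8.55, 8.88 and 8.86 in C57, 7.65, 7.96, 7.82 and 7.90 in *mdx*, and 7.90, 8.34, 7.96 and 7.86 in Pip6e-PMO. Both groups of *mdx* animals lay below all C57 mice, and the fall in untreated *mdx* was -0.93 (SE 0.14, 1.91-fold, adjusted p = 0.00107). Slc1a1, which takes up glutamate and cysteine, was 6.41, 6.34 and 6.24 in C57, 5.33, 5.43, 5.87 and 5.11 in *mdx*, and 5.93, 5.72, 5.80 and 5.82 in Pip6e-PMO. Its difference was -0.90 (SE 0.15, adjusted p = 0.00237), and a further probe set with this symbol gave -0.67 (adjusted p = 0.0115).

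Slc7a8, a light chain for large neutral amino acids, was 8.87, 8.97 and 9.09 in C57, 8.03, 8.24, 8.15 and 8.48 in *mdx*, and 7.63, 8.35, 7.78 and 7.65 in Pip6e-PMO. Its difference of -0.75 (SE 0.17) between *mdx* and C57 had an adjusted p of 0.0124 with all mice and 0.0572 without C57 mouse 3. The treated mice other than mouse 2 lay below every *mdx* mouse, with a difference from *mdx* of -0.37 (adjusted p = 0.129) with mouse 2 and -0.54 (adjusted p = 0.0075) without it. From C57 the treated group differed by -1.12 (SE 0.17, adjusted p = 0.00107). Slc6a17, a neutral amino acid carrier of synaptic vesicles, fell by 0.70 in *mdx* (adjusted p = 0.0189), a call that was lost without C57 mouse 2 or *mdx* mouse 3 (adjusted p up to 0.0902).

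Carriers of glucose, fatty acids and thiamine were lower as well. Slc2a3, the high-affinity glucose carrier of neurons and leukocytes, was 7.96, 7.86 and 7.88 in C57, 6.69, 7.26, 6.64 and 7.36 in *mdx*, and 6.57, 7.07, 7.10 and 7.22 in Pip6e-PMO. It fell by 0.91 (SE 0.20, adjusted p = 0.00946) in *mdx*, and by as much in Pip6e-PMO against C57. Slc27a1, which brings long-chain fatty acids into muscle, was 9.77, 9.99 and 10.30 in C57, 9.28, 9.28, 9.56 and 9.26 in *mdx*, and 9.67, 9.58, 9.38 and 9.47 in Pip6e-PMO, a difference of -0.68 (SE 0.13, adjusted p = 0.00629) between *mdx* and C57. Slc19a2, the thiamine carrier, fell by 0.69 (SE 0.16, adjusted p = 0.013, 0.0597 without C57 mouse 3).

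Slc46a3 is a carrier of the lysosomal membrane. Its signals were 8.37, 8.27 and 8.29 in C57, 7.56, 7.76, 7.45 and 7.69 in *mdx*, and 7.63, 7.55, 7.73 and 7.67 in Pip6e-PMO. It fell by 0.69 (SE 0.10, adjusted p = 0.000773) and kept its call without each mouse. Slc41a1, which exports magnesium in exchange for sodium, was 10.43, 10.76 and 10.86 in C57, 9.99, 9.75, 10.16 and 10 in *mdx*, and 10.25, 10.17, 10.07 and 10.04 in Pip6e-PMO. This was a fall of 0.71 (SE 0.13, adjusted p = 0.00351), so that of the 3 members of the Slc41 magnesium carriers 2 fell, Slc41a1 and Slc41a3, and Slc41a2 rose. The fall of Slc41a3 was 0.46 (SE 0.10, adjusted p = 0.0107, 0.0531 without C57 mouse 3).

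**Figure D3:**
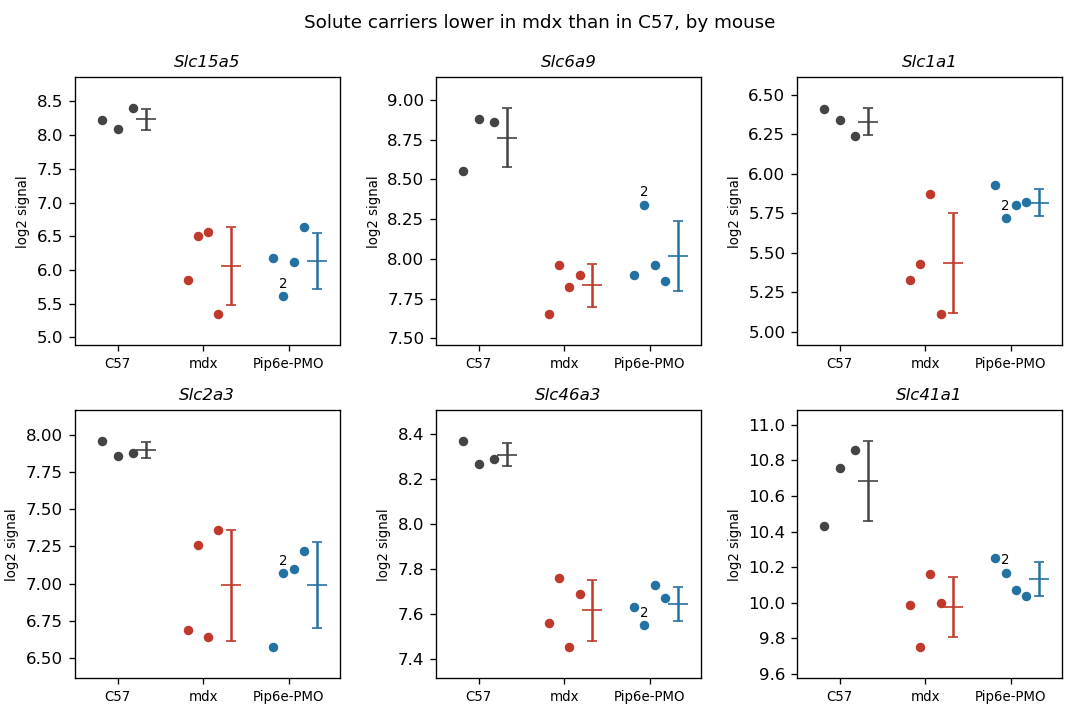
Points are the log2 signals of single mice for 6 members called lower in *mdx* than in C57, with the group mean and SD to their right, and the number marks Pip6e-PMO mouse 2. The *mdx* and the Pip6e-PMO mice lie below all 3 C57 mice in each panel, farthest for Slc15a5.

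In addition, 9 members fell by smaller amounts, from -0.64 for the bicarbonate carrier Slc4a8 (adjusted p = 0.0132, 0.0748 without C57 mouse 2) to -0.30 for the phosphate carrier Slc20a2, and are named outside the rule for genes of largest change. They were Slc4a8, Slc43a1, Slc22a23, Slc7a2, Slc41a3, Slc43a3, Slc26a6, Slc22a5 and Slc20a2. Slc22a5, the carnitine carrier, fell by 0.34 (adjusted p = 0.0386), and Slc26a6, an anion exchanger, by 0.43 (adjusted p = 0.0437). For Slc20a2, Slc22a5 and Slc26a6 the call was lost without any of 8 of the 11 mice, among them *mdx* mice 2, 3 and 4 (adjusted p up to 0.121, 0.153 and 0.18). In the whole comparison 15 of the 29 calls held without each mouse in turn, and the number of members called lower dropped from 19 to 12 without C57 mouse 3.

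Of 5 markers of peripheral nerve 3 were tested between *mdx* and C57, and 1, the myelin gene Mbp, was called, by -1.0, in the direction of Slc6a9, Slc1a1, Slc2a3 and Slc6a17. The summed signal of the 5 overlapped between the groups and ran from 1115 to 1402 in C57, from 1042 to 1443 in *mdx* and from 1057 to 1172 after Pip6e-PMO. Its part in these falls was not tested.

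The promoters of both leading risers and both leading falling members for which a sequence was at hand are shown, because these were members of large change in *mdx*. RefSeq gave a promoter, from 250 bases before to 50 bases after the start of the gene, for 123 of the 159 members (GRCm38.p6), and the first listed was taken where a gene had several. They were searched on both strands for GAGGAA, the core bound by PU.1 and other ETS factors of macrophages, and for CACGTG, the E-box of lysosomal regulators and Myc. The 2 motifs do not overlap in these sequences, and capitals mark every match of either.
Slc11a1, chr1:74374953-74375252, plus strand: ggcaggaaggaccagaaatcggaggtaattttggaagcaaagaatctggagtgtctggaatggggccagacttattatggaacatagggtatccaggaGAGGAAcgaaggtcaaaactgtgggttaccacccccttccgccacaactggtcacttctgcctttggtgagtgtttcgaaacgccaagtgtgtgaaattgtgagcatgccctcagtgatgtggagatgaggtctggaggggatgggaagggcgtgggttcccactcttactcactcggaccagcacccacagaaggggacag
Slc37a2, chr9:37255689-37255988, minus strand: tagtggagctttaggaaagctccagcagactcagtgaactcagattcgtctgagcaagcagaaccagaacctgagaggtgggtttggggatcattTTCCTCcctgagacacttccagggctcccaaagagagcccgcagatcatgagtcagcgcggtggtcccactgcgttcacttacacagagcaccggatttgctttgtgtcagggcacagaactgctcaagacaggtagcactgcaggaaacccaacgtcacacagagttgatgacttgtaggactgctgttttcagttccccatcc
Slc15a5, chr6:138079867-138080166, minus strand: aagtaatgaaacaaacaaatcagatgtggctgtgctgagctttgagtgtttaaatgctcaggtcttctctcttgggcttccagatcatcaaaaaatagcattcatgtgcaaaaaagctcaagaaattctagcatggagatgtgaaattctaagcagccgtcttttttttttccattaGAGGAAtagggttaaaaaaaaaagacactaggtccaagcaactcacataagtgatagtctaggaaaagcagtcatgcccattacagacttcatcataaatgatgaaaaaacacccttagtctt
Slc6a9, chr4:117835008-117835307, plus strand: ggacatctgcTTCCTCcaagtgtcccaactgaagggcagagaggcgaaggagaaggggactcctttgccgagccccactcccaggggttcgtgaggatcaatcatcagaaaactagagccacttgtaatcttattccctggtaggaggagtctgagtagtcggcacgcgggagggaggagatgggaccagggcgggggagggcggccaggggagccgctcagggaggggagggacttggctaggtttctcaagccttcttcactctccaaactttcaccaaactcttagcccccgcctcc
All 4 hold a single match of GAGGAA or its complement TTCCTC and none of CACGTG. Among the members with a promoter, GAGGAA was found in 2 of 7 that rose in *mdx* (28.6%), in 4 of 15 that fell (26.7%) and in 28.3% of 27018 promoters of all genes. CACGTG was present in 13% of the members' promoters and in 7.24% of all promoters. A match says only that the letters are there.

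Slc2a4, the insulin-responsive glucose carrier of muscle fibres, had signals of 11.69, 11.80 and 11.92 in C57, 11.65, 11.67, 11.69 and 11.52 in *mdx*, and 11.62, 11.93, 11.72 and 11.73 in Pip6e-PMO. The groups overlapped, with a difference of -0.17 (SE 0.10, adjusted p = 0.329) between *mdx* and C57. Slc16a3, which exports lactate from fast fibres, differed by 0.03 (SE 0.10, adjusted p = 0.915) and Bsg, the chaperone of these carriers, by 0.06 (adjusted p = 0.712). The creatine carrier Slc6a8 differed by 0.07 (SE 0.12, adjusted p = 0.78), and the taurine carrier Slc6a6 by -0.14 (SE 0.15, adjusted p = 0.618). The glucose carrier Slc2a1 differed by -0.19 (SE 0.14, adjusted p = 0.424), and the calcium exchanger Slc8a3 by -0.16 (SE 0.11, adjusted p = 0.426). Of the 27 transporters chosen for their role in muscle, 26 were members, 1 (Slc11a1) was higher in *mdx*, 3 (Slc27a1, Slc20a2, Slc22a5) were lower and 22 were not called, with differences from -0.47 to 0.37, where 7.06% of all probe sets were called higher and 4.96% lower. An adjusted p above the threshold does not show that these carriers were alike in both groups.

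Metal carriers and their partners gave an uneven picture. The metallothioneins Mt1 and Mt2, which bind zinc and are induced by it, rose in *mdx* by 1.5 (adjusted p = 0.0086) and 2.47 (adjusted p = 0.000377). The zinc exporter Slc30a1 was 5.52, 5.53 and 5.54 in C57 and 5.49, 5.52, 5.30 and 5.49 in *mdx*, a difference of -0.08 (SE 0.10, adjusted p = 0.708). None of the 7 Slc30 and the 10 Slc39 zinc carriers among the members was called between *mdx* and C57 by limma with all mice. Their differences ran from -0.30 to 0.37, and 3 had an unadjusted p under 0.05. Over all probe sets 7.06% were called higher and 4.96% lower. Without treated mouse 2 Slc30a7 was called higher in *mdx* (0.34, adjusted p = 0.0225), beside 9.09% higher and 6.21% lower over all probe sets. Of 24 tested partners of carriers (chaperones, pumps, kinases, and zinc and iron handling) 4 were higher in *mdx*, namely Atp1b4, Mt1, Mt2 and Ftl1, and none lower.

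After Pip6e-PMO 17 members were higher than in untreated *mdx* and 2 were lower. This is 10.7% and 1.26% of the members, where 7.26% and 3.88% of all probe sets tested were called in those directions. The median difference was 0.035 over the members and 0.0175 over all probe sets tested, and 51 members had an unadjusted p under 0.05. Slc35f1 was the 1 call among the members that reached the signal limit in 1 or 2 groups, and it reached the limit in the treated group only. The counts rested on single mice: 17 members called higher became 6 without *mdx* mouse 3, 2 without *mdx* mouse 4, 7 without treated mouse 1, 27 without treated mouse 2, and 4 without treated mouse 3 or 4. Of the 19 calls 1, that of Slc38a6, held without each mouse in turn.

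Some markers of vessels moved as well. Of 6 endothelial genes Pecam1 and Tek were higher in Pip6e-PMO than in *mdx*, by 0.78 (adjusted p = 0.0277) and 0.97 (adjusted p = 0.0332), and 4 were higher than in C57. The summed signal of the 6 was 2149 to 2564 in C57, 2546 to 3080 in *mdx*, 2664 in treated mouse 2 and 3338 to 3523 in the other treated mice. Of 7 fibroblast and matrix genes none was called by limma between Pip6e-PMO and *mdx* (2 at an unadjusted p under 0.05) and 5 were higher than in C57, with sums of 5528 to 7436 in C57, 9073 to 10370 in *mdx*, 12850 in treated mouse 2 and 7628 to 9971 in the other treated mice. Their part in the differences of the carriers was not tested.

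**Figure D4:**
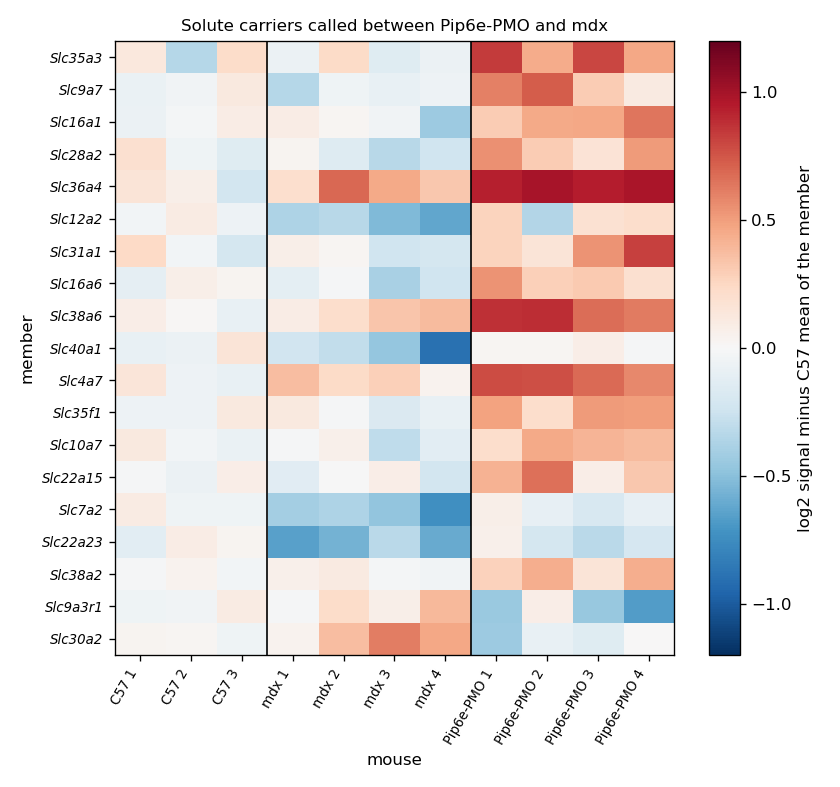
Each row is 1 of the 19 members called between Pip6e-PMO and *mdx*, and each column 1 mouse, and the colour is the log2 signal minus the member's mean in the 3 C57 mice. The 17 upper rows are on average redder in the treated than in the *mdx* mice, and the 2 lowest rows, Slc9a3r1 and Slc30a2, are bluer.

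Slc38a6 belongs to the family of sodium-coupled neutral amino acid carriers. Its signals were 5.26, 5.19 and 5.09 in C57, 5.27, 5.39, 5.51 and 5.56 in *mdx*, and 6.06, 6.07, 5.85 and 5.80 in Pip6e-PMO. All treated mice lay above all others, by 0.51 (SE 0.10, adjusted p = 0.0146) against *mdx* and 0.77 (SE 0.11, adjusted p = 0.000667) against C57. Slc38a2, the family member that muscle induces when amino acids are scarce, differed by 0.30 (SE 0.09, adjusted p = 0.0464), a call lost without any mouse but treated mouse 2 (adjusted p up to 0.132). Slc36a4, an amino acid carrier of high affinity, was 5.95, 5.87 and 5.58 in C57, 6.0, 6.49, 6.25 and 6.12 in *mdx*, and 6.73, 6.79, 6.74 and 6.78 in Pip6e-PMO. The groups did not overlap at either step, and it rose by 0.55 (SE 0.12, adjusted p = 0.0192) with treatment, a call lost without *mdx* mouse 4 or treated mouse 3 or 4 (adjusted p up to 0.0575).

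Carboxylate carriers rose in 2 of 8 cases and fell in none, with or without treated mouse 2. Over all probe sets 7.26% were called higher and 3.88% lower with it, and 16.3% and 12% without it. Slc16a1, the carrier of lactate, pyruvate and ketone bodies of oxidative cells, was 9.23, 9.28 and 9.39 in C57, 9.39, 9.32, 9.26 and 8.86 in *mdx*, and 9.60, 9.75, 9.76 and 9.94 in Pip6e-PMO. Every treated mouse, mouse 2 included, exceeded every other mouse. The difference from *mdx* was 0.56 (SE 0.12, 1.47-fold, adjusted p = 0.0206) and was not called without treated mouse 3 or 4 (adjusted p up to 0.0654). Slc16a6, a ketone body carrier, rose by 0.53 (SE 0.11, adjusted p = 0.0167, 0.0507 without *mdx* mouse 4).

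Carriers of nucleosides and nucleotide sugars were called higher in 3 of 23 cases and lower in none, where 7.26% and 3.88% of all probe sets were called. Of the 3, Slc35f1 passed the signal limit through the treated group only, so its call is tied to that limit. Without treated mouse 2 there were 4 higher and 4 lower, beside 16.3% and 12% of all probe sets. Slc35a3, which brings UDP-N-acetylglucosamine into the Golgi, was 5.63, 5.16 and 5.73 in C57, 5.44, 5.74, 5.36 and 5.44 in *mdx*, and 6.35, 5.95, 6.31 and 5.97 in Pip6e-PMO. It rose by 0.65 (SE 0.15, 1.57-fold, adjusted p = 0.0229), and the call was lost without *mdx* mouse 3 or 4 or treated mouse 1, 3 or 4 (adjusted p up to 0.0631). Slc28a2, which takes up purine nucleosides with sodium, was 6.94, 6.69 and 6.60 in C57, 6.78, 6.59, 6.41 and 6.5 in *mdx*, and 7.29, 7.05, 6.91 and 7.25 in Pip6e-PMO. The treated mice lay above all *mdx* mice, by 0.56 (SE 0.12, adjusted p = 0.02), which was lost without *mdx* mouse 3 or 4 or treated mouse 1 or 4 (adjusted p up to 0.0645). The proton exchanger of the Golgi, Slc9a7, rose by 0.57 (SE 0.13, adjusted p = 0.0252), a call lost without *mdx* mouse 1, 3 or 4 or treated mouse 1 or 3 (adjusted p up to 0.0653).

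For the ion carrier Slc12a2 and the iron exporter Slc40a1 the treated mice differed from C57 by 0.08 and 0.03. Untreated *mdx* mice differed from C57 by -0.466 and -0.472, which was not called with all mice (adjusted p = 0.057 and 0.0521). In the fit without treated mouse 2 both were called lower in *mdx* than in C57 (adjusted p = 0.00613 and 0.0494). Slc12a2, which takes up sodium, potassium and chloride together, was 8.31, 8.44 and 8.28 in C57, 7.97, 8.01, 7.81 and 7.72 in *mdx*, and 8.61, 7.99, 8.53 and 8.55 in Pip6e-PMO. Of the treated mice 3 lay above all C57 mice, and mouse 2 lay within the *mdx* range. The difference from *mdx* was 0.54 (SE 0.13, adjusted p = 0.029) with mouse 2 and 0.69 (adjusted p = 0.00207) without it. With mouse 2 the call was lost without *mdx* mouse 3 or 4 or treated mouse 1, 3 or 4 (adjusted p up to 0.0852).

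Slc40a1, ferroportin, is the iron exporter of cells, and its signals were 7.54, 7.56 and 7.78 in C57, 7.40, 7.33, 7.16 and 6.73 in *mdx*, and 7.65, 7.65, 7.71 and 7.61 in Pip6e-PMO. The treated mice lay inside the C57 range and above all *mdx* mice, by 0.50 (SE 0.13, adjusted p = 0.0359, up to 0.0844 without *mdx* mouse 3 or 4, C57 mouse 2 or treated mouse 1, 3 or 4). Tfrc, the transferrin receptor through which iron enters, rose by 0.94 (adjusted p = 0.0355) after treatment. Slc31a1, the copper importer, was 7.04, 6.99, 6.73 and 6.76 in *mdx* and 7.24, 7.12, 7.51 and 7.79 in Pip6e-PMO, higher by 0.54 (SE 0.15, adjusted p = 0.0435). Its call was lost without any of 8 mice, treated mice 1, 3 and 4 and all *mdx* mice among them (adjusted p up to 0.116).

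Slc7a2 and Slc22a23 were called lower in *mdx* than in C57 and higher in Pip6e-PMO than in *mdx*, and these comparisons share the *mdx* mice. Slc7a2, which takes up arginine and lysine, was 8.90, 8.75 and 8.75 in C57, 8.39, 8.43, 8.33 and 8.06 in *mdx*, and 8.87, 8.70, 8.61 and 8.70 in Pip6e-PMO. It fell by 0.50 (SE 0.11, adjusted p = 0.0109) in *mdx*, and the treated mice exceeded *mdx* by 0.42 (SE 0.10, adjusted p = 0.0275), the latter lost without *mdx* mouse 3 or 4 or treated mouse 1, 3 or 4 (adjusted p up to 0.0753). Slc22a23, a carrier with no established substrate, fell by 0.54 (adjusted p = 0.0102, 0.0552 without C57 mouse 2) and differed by 0.36 (adjusted p = 0.0485) after treatment, and the latter call was lost without any mouse but treated mouse 2 (adjusted p up to 0.122).

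The other members called higher were Slc35f1, Slc4a7, Slc10a7 and Slc22a15, with differences of 0.44 to 0.47, which are outside the naming rule. Those called lower were Slc30a2 and Slc9a3r1. Slc30a2, which loads zinc into vesicles, was 7.37, 7.36 and 7.29 in C57, 7.38, 7.71, 7.95 and 7.80 in *mdx*, and 6.90, 7.25, 7.19 and 7.34 in Pip6e-PMO, a fall of 0.54 (SE 0.13, adjusted p = 0.0263). The scaffold Slc9a3r1 also fell by 0.54 (adjusted p = 0.0388), with treated mouse 2 at 6.44 and the others at 5.92, 5.91 and 5.69. Slc30a2 lost its call without any of 6 mice and Slc9a3r1 without any of 8, both without *mdx* mouse 2, 3 or 4 and without treated mouse 1, 3 or 4. Mt1 and Mt2 fell with treatment by 1.07 (adjusted p = 0.0377) and 1.29 (adjusted p = 0.0211), and of the 24 tested partners 3 were higher (Atp1b1, Atp1b4, Tfrc) and these 2 lower.

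Without treated mouse 2 the comparison of Pip6e-PMO with *mdx* called 27 members higher and 24 lower. That is 17% and 15.1% of the members, beside 16.3% and 12% of all probe sets called in the same fit. All 19 calls made with all mice were among these 51. Among the 24 lower members were 5 of the 10 that had risen in *mdx*: Slc11a1 by -0.65 (adjusted p = 0.0105), Slc2a6 by -0.60 (adjusted p = 0.0133), Slc15a3 by -0.60 (adjusted p = 0.031), Slc7a7 by -0.53 (adjusted p = 0.0131) and Slc37a2 by -0.52 (adjusted p = 0.0486). With mouse 2 their differences were -0.34 to -0.47 and none was called. Macrophage and regenerating fibre sums of mouse 2 lay in the *mdx* range, as given above.

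Of the lower members without mouse 2, the largest difference was that of Slc7a10, a carrier of small neutral amino acids known from fat cells. Its signals were 5.47, 5.29 and 5.24 in C57, 4.65, 5.43, 5.56 and 5.34 in *mdx*, and 4.42, 5.32, 4.40 and 4.25 in Pip6e-PMO, a difference of -0.89 (adjusted p = 0.00705) without mouse 2. Mouse 2 was at the *mdx* level and the other treated mice were below every *mdx* mouse. With all mice Slc7a10 was not called. Its mean signal reached the limit in C57 (40.413) and *mdx* (38.975) but not in Pip6e-PMO (25.373). Its lower call is therefore tied to that limit. Adipocyte markers were called lower in Pip6e-PMO than in *mdx* for 5 of 6 tested, Adipoq by -1.64 and Cfd by -1.94. The exception, Fabp4, differed by 0.26 and was not called by limma (adjusted p = 0.143). Fabp4 had the highest mean linear signal of the list, 763 for *mdx* and 917 for Pip6e-PMO, and so weighed most in the summed signal. These sums ranged over 1200 to 2144 for the *mdx* mice and over 1175 to 1335 for the treated mice. The 3 C57 mice had sums of 1831, 1383 and 1399. The part of these markers in the difference of Slc7a10 was not tested. Without mouse 2 the zinc carriers Slc39a13 and Slc39a1 differed by -0.48 (adjusted p = 0.00474) and -0.56 (adjusted p = 0.00918), and Slc30a9 of the zinc transporter family by 0.68 (adjusted p = 0.0068).

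Pip6e-PMO muscle differed from C57 in 27 members called higher and 24 called lower, 17% and 15.1% of the 159, where 15.6% and 8.96% of all probe sets were called. The medians were 0.0042 for the members and 0.0033 for all probe sets tested, and 74 members had an unadjusted p under 0.05. Of the 51 calls, 7 came from the 12 members that passed the signal limit in 1 or 2 groups, and 25 held without each mouse in turn. The higher calls dropped from 27 to 13 without C57 mouse 2. The lower calls dropped to 15 without C57 mouse 2, to 14 without C57 mouse 3 and to 15 without treated mouse 3, and increased to 39 without treated mouse 2, where the higher calls were 30. These 39 and 30 were 24.5% and 18.9% of the members, beside 13.8% lower and 20.2% higher over all probe sets in that fit. Of the 10 members that had risen in *mdx*, 8 were called higher here too, the exceptions being Slc15a3 and Slc2a6, and of the 19 that had fallen 15 were called lower, the exceptions being Slc22a23, Slc7a2, Slc19a2 and Slc20a2. These counts share the C57 mice and are not independent of those above.

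Apart from Slc15a5, Slc6a9, Slc2a3 and Slc7a8, the largest differences from C57 after treatment were in Slc9a9, Slc16a12, Slc36a4, Slc38a1, Slc39a10 and Slc43a1. Slc16a12, a carrier that lets creatine out of cells, was 4.55, 4.05 and 4.39 in C57, 5.22, 4.75, 4.91 and 4.49 in *mdx*, and 4.97, 5.41, 5.44 and 5.49 in Pip6e-PMO. The treated mice were above all C57 mice by 1.0 (SE 0.18, 2.00-fold, adjusted p = 0.00321), and this member passed the signal limit through the treated group only. Slc39a10, a zinc importer, was 4.50, 4.65 and 4.57 in C57 and 5.26, 5.15, 5.24 and 6.05 in Pip6e-PMO, a difference of 0.85 (SE 0.22, adjusted p = 0.0168, 0.0553 without C57 mouse 3), and it too passed through the treated group only. Slc43a1, a carrier of large neutral amino acids, was 9.28, 9.02 and 9.33 in C57, 8.59, 8.53, 8.44 and 8.78 in *mdx*, and 8.43, 8.10, 8.71 and 8.38 in Pip6e-PMO. It was lower than in C57 by -0.62 (adjusted p = 0.0132, 0.0617 without C57 mouse 3) in *mdx* and by -0.81 (SE 0.14, adjusted p = 0.00267) after treatment.

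**Figure D5:**
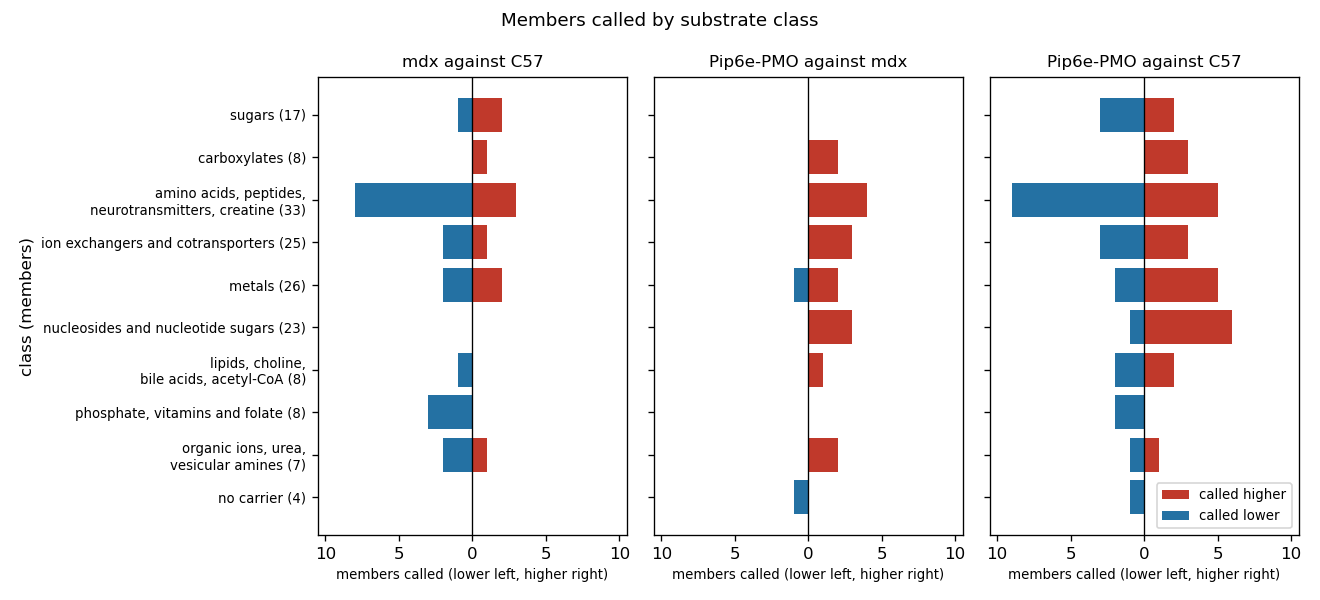
Bars count the members called higher (right) or lower (left) in each class of substrate, for the 3 comparisons with all 11 mice. The number of members of the class is in brackets. Amino acid carriers have 8 lower calls in *mdx* against C57 and 9 in Pip6e-PMO against C57, and nucleotide sugar and nucleoside carriers have 6 higher calls in the latter. Of these, Slc36a2 (lower) passed the signal limit through C57 only, and Slc35b3 and Slc35f1 (higher) through the treated group only.

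By substrate class, sugar carriers had 2 higher and 1 lower call of 17 between *mdx* and C57, no call between Pip6e-PMO and *mdx* (2 at an unadjusted p under 0.05 by limma, and 3 lower calls, Slc2a6, Slc37a2 and Slc5a6, without treated mouse 2), and 2 higher and 3 lower calls between Pip6e-PMO and C57 (2 and 5 without treated mouse 2). The 2 higher ones in the last comparison were Slc37a2 and the inositol carrier Slc5a3, and the lower ones Slc2a3, the glucose 6-phosphate carrier Slc37a4 and Slc5a6, a biotin carrier counted here with its Slc5 family. Slc37a4 was 11.63, 11.52 and 11.68 in C57, 11.37, 11.51, 11.04 and 11.39 in *mdx*, and 10.65, 11.44, 11.18 and 10.97 in Pip6e-PMO, lower than C57 by -0.55 (SE 0.17, adjusted p = 0.0334) after treatment. This call was lost without any C57 mouse or treated mouse 1 or 4 (adjusted p up to 0.11). In the class of nucleosides and nucleotide sugars the 23 members had no limma call between *mdx* and C57 (3 at an unadjusted p under 0.05), with differences from -0.41 to 0.42, and 6 higher calls and 1 lower between Pip6e-PMO and C57 (6 and 5 without treated mouse 2). Of the higher ones, Slc35b3 and Slc35f1 passed the signal limit through the treated group only, so their calls are tied to that limit. The 33 amino acid carriers had 4 higher and no lower calls between Pip6e-PMO and *mdx*, and 4 higher and 8 lower without treated mouse 2. Between Pip6e-PMO and C57 they had 5 higher and 9 lower calls, and 4 and 13 without that mouse. Of these carriers, Slc36a2 passed the signal limit through the C57 group only. Slc7a10 passed it through C57 and *mdx* only, and Slc38a1 through *mdx* and Pip6e-PMO only. The 25 ion exchangers and cotransporters had 3 higher and 0 lower calls between Pip6e-PMO and *mdx*, and 8 and 1 without treated mouse 2. Against C57 they had 3 and 3, and 5 and 3 without it. The 26 metal carriers had 2 and 1 against *mdx*, and 5 and 4 without it. Against C57 they had 5 and 2, and 6 and 6 without it. Of these, Slc39a10 passed the signal limit through the treated group only. Beside the counts of these classes, 7.06% of all probe sets were called higher and 4.96% lower between *mdx* and C57. For Pip6e-PMO against *mdx* these shares were 7.26% and 3.88%, and 16.3% and 12% without treated mouse 2. For Pip6e-PMO against C57 they were 15.6% and 8.96%, and 20.2% and 13.8% without it.

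In the annotation deposited with the array, 16 members were placed in the Golgi and 7 in lysosomes or late endosomes, a grouping made after the values were seen. The Golgi members had no limma call between *mdx* and C57 (3 at an unadjusted p under 0.05) and a median difference of 0.0025. Without treated mouse 2 that comparison called 1 of them higher and 1 lower, beside 9.09% and 6.21% of all probe sets. After treatment 6 of them were higher than in C57, Slc30a7, Slc35a1, Slc35a3, Slc35a5, Slc35b3 and Slc9a7, and 2 were lower, Slc35c1 and Slc9a8, where 15.6% and 8.96% of all probe sets were called. Slc35b3 passed the signal limit through the treated group only, so its call is tied to that limit. Without treated mouse 2 there were 5 higher and 3 lower, beside 20.2% and 13.8% of all probe sets. Of the 7 lysosomal members Slc11a1 and Slc15a3 were higher in *mdx* and none was lower. Slc46a3 was not in this annotated group. Of 73 members of the plasma membrane 4 were higher and 10 lower in *mdx*. Beside these counts, 7.06% of all probe sets were called higher and 4.96% lower.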

How the data were processed

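TA mRNA was measured on Affymetrix Mouse Gene ST 1.1 arrays, 1 per mouse (3 C57, 4 *mdx*, 4 Pip6e-PMO). The authors ran RMA in Affymetrix Expression Console, with its background correction, a sketch form of quantile normalization and a median-polish summary, and deposited linear intensities as a signal per gene. Versions and a genome build are not given in the sources used here, and no batch is named. The deposited values lie on hundredths of log2, so smaller differences are not resolved. The number of arrays limits the precision.

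The log2 of these intensities was fitted with limma 3.58.1 in R 4.3.3 (lmFit and eBayes, 3 group means, all 11 mice) for 14494 probe sets with a mean of 30 or more in at least 1 group, with two-sided tests and Benjamini-Hochberg adjustment. The fit was tested on simulated data. Members, gene lists and tests were chosen with earlier results of these data known. The genes named were those of largest change among calls without overlap (10 each way for *mdx* against C57, 5 each way otherwise), the 10 of highest signal and 27 muscle transporters, and others are marked. A rising member and a nerve marker are not reported here. The Slc symbols had 319 probe sets. Several stood for 12 members, and those of Slc44a1 disagreed (0.28 and 1.085 between *mdx* and C57). The chosen probe set of Slc35a4 is annotated as cross-hybridizing. Entrez identifiers matched all 159 members, and Slc24a6 is now Slc8b1. Only 17 deposited positions overlap GRCm38.p6, so none is printed. Alternatives were other tests, filters, priors, scalings, weights, probe set rules, a block and each mouse left out.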

Additional observations from a re-analysis of the deposited data

Results flagged for a closer look

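Among 59 named genes in the *mdx* and Pip6e-PMO groups, 14 of 118 gene groups held 1 mouse whose gap to the nearest other mouse, over the range of the 4 mice, exceeded the critical value of Dixon's outlier test. Chance gives about 1 in 20 such groups. Pip6e-PMO mouse 2 was the distant mouse for 4 genes: Slc11a1 at 7.53 (others 6.75 to 6.83), Slc1a5 at 9.03 (8.30 to 8.40) and Slc7a7 at 6.38 (5.78 to 5.86), where it was highest, and Slc12a2 at 7.99 (8.53 to 8.61), where it was lowest. The others of the treated group were Slc16a12 in mouse 1 at 4.97 (5.41 to 5.49), Slc39a10 in mouse 4 at 6.05 (5.15 to 5.26) and Slc5a5, no member, in mouse 4 at 4.63 (4.75 to 4.76). In *mdx* they were, in mouse 1, Slc9a7 at 6.01 (6.26 to 6.30). In *mdx* mouse 3 they were Slc27a1 at 9.56 (9.26 to 9.28) and Slc30a1 at 5.30 (5.49 to 5.52). In *mdx* mouse 4 they were Slc16a3 at 11.33 (11.38 in the others), Slc35a4 at 11.02 (10.87 to 10.89), Slc5a5 at 4.45 (4.74 to 4.78) and Slc8a1 at 4.94 (5.28 in the others). The gap of Slc16a3 is a few steps of the deposited values, which lie on hundredths. The log2 signals are those of single mice.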

How the results depend on the processing

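The counts of members called, higher then lower, were 10 and 19 for *mdx* against C57, 17 and 2 for Pip6e-PMO against *mdx*, and 27 and 24 for Pip6e-PMO against C57. The methods' t-test with Benjamini-Hochberg adjustment gave 5 and 7, 0 and 0, and 10 and 10. At an unadjusted p under 0.05 it had 46, 34 and 57 members. At p under 0.01 and 1.5-fold it gave 10 lower, 1 and 0, and 10 and 10. On linear signals, adjusted, it gave 2 and 6, 0 and 0, and 7 and 8. limma at p under 0.01 and 1.5-fold gave 12 lower, 2 and 0, and 16 and 12. Array weights gave 21 higher, 30 and 24, and 44 and 42, with the lowest weight, 0.256, for treated mouse 2. Fitting only the groups compared gave 9 and 0 for Pip6e-PMO against *mdx*, and no signal filter gave 1 lower there. A minimum signal of 100 left 104 members, with 5 higher in *mdx* and 13 higher in Pip6e-PMO than in C57. The replicate block gave 5 and 1 for Pip6e-PMO against *mdx*, although same-numbered mice are separate animals, whose deviations correlated at -0.297 to 0.153. The causes were not tested. Leaving out 1 mouse gave ranges of 7 to 13 and 12 to 24, 2 to 27 and 0 to 24, and 13 to 30 and 14 to 39. With limma, 51 members had an unadjusted p under 0.05 between Pip6e-PMO and *mdx*. Other alternatives stayed within 1.5 times, and of 825 values of named genes 747 kept their side of the threshold, 78 lost it and 0 reversed. Centred medians and repeated quantile normalization moved the median of all probe sets by under 0.1.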

Other observations

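Slc7a5, the light chain that takes up leucine, was 6.72, 6.81 and 6.86 in C57, 6.94, 7.02, 7.11 and 7.37 in *mdx*, and 6.64, 7.36, 6.68 and 6.46 in Pip6e-PMO. All *mdx* mice lay above C57 (0.31, adjusted p = 0.328), and without treated mouse 2 it was lower than in *mdx* by -0.52 (adjusted p = 0.00862). Slc1a5, the glutamine carrier, was 9.17, 8.94 and 8.98 in C57 and 8.31, 9.03, 8.40 and 8.30 in Pip6e-PMO, a difference of -0.52 (adjusted p = 0.069). Slc4a1, the anion exchanger of red cells, differed by -0.13 (adjusted p = 0.751) between *mdx* and C57, beside 0.10 for Hbb-b1 and 0.01 for Hba-a1, and no erythroid marker was called. Slc38a3, a glutamine carrier, was 10.69, 10.74 and 10.86 in C57 and 10.51, 10.59, 10.35 and 10.32 in *mdx*, without overlap, and was not called (-0.32, adjusted p = 0.105).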
